A study of Drosophila melanogaster with 2 samples.

Results

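The Hox genes of Drosophila melanogaster were examined for peaks of the zinc finger protein l(3)neo38 in embryo chromatin. The set holds the 8 Hox genes of both complexes, of 13945 protein-coding genes in the Ensembl annotation of the dm6 genome: lab, pb, Dfd, Scr and Antp of the Antennapedia complex, and Ubx, abd-A and Abd-B of the Bithorax complex. Summits, the positions of highest enrichment inside each peak as deposited, were assigned to the set when they lay in a member, within 2000 bp of it, or between neighbouring members of a complex. This gave 59 of the 3953 thresholded summits, 29 in the Antennapedia complex and 30 in the Bithorax complex. The assignment of summits used position alone and no measured strength, but the genes were chosen with earlier results of these data known.

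The chromatin came from a stable transgenic fly line in which GFP was joined to the C-terminal end of l(3)neo38, and an antibody to GFP was used for the precipitation. Whole embryos of mixed sex, aged 0 to 24 h, were sheared by sonication into pieces of 200 to 800 bp, and 2 biological replicates formed 1 group. Embryos of this age range cover all of embryogenesis, so every peak is an average over stages, segments and tissues in which a given Hox gene is on or off. Neither untagged embryos nor another genotype was analysed here, so no groups could be compared, and all shares and medians that follow are descriptions without a test. The signal value of a peak is the authors' own measure of strength, and the depth of the libraries is unknown.

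Hox genes encode homeodomain transcription factors that give the segments their identity along the body, and their order on the chromosome follows the order of the segments they act in. Their expression is started by gap and pair-rule factors in the early embryo and is then kept on or off by trithorax and Polycomb group proteins. These act through Polycomb response elements, many of which carry sites for Pleiohomeotic (Pho), whose core is GCCAT, and for GAGA factor, which binds GAGAG. Large stretches between the coding genes, transcribed into long non-coding RNAs such as bxd and iab-8, hold the enhancers and boundary elements of the complexes.

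The windows of 101 bp centred on the summits that the results turn on read as follows, 5′ to 3′ on the plus strand of dm6 chromosome arm 3R in the release 6 sequence of RefSeq. Capitals mark every match to GCCAT or GAGAG on either strand, so that ATGGC and CTCTC are also in capitals. The first set shows 6 of the 8 promoter summits at starts of the Hox genes, which differ in which of the cores they hold. The Abd-B inner promoter is the start at position 16960281 of 3R. It is not the start nearest to the 3′ end of the gene.
lab promoter, chr3R:6678617-6678717: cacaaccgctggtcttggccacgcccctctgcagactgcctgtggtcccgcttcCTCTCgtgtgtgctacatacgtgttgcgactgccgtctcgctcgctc
pb promoter, chr3R:6742117-6742217: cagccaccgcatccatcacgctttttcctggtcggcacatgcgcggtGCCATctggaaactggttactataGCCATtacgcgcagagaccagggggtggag
Dfd promoter, chr3R:6791558-6791658: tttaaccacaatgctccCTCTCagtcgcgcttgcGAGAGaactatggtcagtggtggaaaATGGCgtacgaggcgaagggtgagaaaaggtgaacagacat
Scr inner promoter, chr3R:6848625-6848725: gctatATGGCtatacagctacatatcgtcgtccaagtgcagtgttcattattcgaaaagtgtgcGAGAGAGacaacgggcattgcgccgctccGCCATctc
abd-A promoter, chr3R:16830132-16830232: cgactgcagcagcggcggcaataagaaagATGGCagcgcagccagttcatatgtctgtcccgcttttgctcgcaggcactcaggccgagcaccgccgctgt
Abd-B inner promoter, chr3R:16960325-16960425: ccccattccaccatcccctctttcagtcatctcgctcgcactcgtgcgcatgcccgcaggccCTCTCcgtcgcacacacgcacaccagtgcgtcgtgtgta
The next set shows the strongest summits away from Hox starts in Antp, beside mir-10 and in Ubx.
Antp intron, strongest of all, chr3R:6992058-6992158: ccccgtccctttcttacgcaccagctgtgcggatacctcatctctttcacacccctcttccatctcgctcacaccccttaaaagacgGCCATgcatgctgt
Antp intron, next strongest, chr3R:6978555-6978655: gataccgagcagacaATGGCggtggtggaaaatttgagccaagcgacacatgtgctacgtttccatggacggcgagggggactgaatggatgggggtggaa
beside mir-10, chr3R:6810771-6810871: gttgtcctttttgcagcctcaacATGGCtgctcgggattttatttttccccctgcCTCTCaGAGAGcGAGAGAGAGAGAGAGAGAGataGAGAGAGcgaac
Ubx intron, strongest, chr3R:16672441-16672541: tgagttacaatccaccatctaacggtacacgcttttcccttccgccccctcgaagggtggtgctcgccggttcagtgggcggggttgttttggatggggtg
The last set shows some of the summits of the Bithorax complex in which GCCAT stood more than once, or once beside several GAGAG matches.
bxd intron, chr3R:16764146-16764246: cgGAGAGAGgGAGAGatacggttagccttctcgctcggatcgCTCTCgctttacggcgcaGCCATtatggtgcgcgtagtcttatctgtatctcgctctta
abd-A intron, chr3R:16811826-16811926: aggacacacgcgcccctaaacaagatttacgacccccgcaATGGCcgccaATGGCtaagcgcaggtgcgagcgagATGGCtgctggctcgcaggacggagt
iab-8 intron, left, chr3R:16869470-16869570: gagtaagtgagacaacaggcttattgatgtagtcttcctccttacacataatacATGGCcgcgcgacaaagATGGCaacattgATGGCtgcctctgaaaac
iab-8 intron, middle, chr3R:16886574-16886674: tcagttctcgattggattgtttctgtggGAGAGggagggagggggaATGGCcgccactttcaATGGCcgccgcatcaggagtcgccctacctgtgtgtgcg
iab-8 start, chr3R:16899850-16899950: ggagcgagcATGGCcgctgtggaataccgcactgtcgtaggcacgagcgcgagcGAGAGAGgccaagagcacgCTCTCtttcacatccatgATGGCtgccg
iab-8 intron, right, chr3R:16913646-16913746: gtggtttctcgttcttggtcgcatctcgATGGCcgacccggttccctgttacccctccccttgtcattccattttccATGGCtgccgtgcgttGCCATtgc

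Peaks were denser in the complexes than over the genome. The Antennapedia complex, chr3R:6659427-7001228 with the 2000 bp flanks, held 0.848 summits per 10 kb over 341.8 kb, and the Bithorax complex, chr3R:16654623-16974236, held 0.939 per 10 kb over 319.6 kb. The density was 0.295 per 10 kb over the 6 chromosome arms and 0.272 on the rest of 3R. Cut into 443 tiles of 300 kb, the arms held a median of 8 summits per tile with quartiles of 3 and 13.5. At the densities above, 300 kb of the Antennapedia complex held 25.5 summits and 300 kb of the Bithorax complex 28.2. Tiles with as many or more numbered 15 and 11, and the fullest held 49, so the complexes were among the denser stretches but not the densest. Joining summits within 250 bp of each other left 54 clusters of the 59.

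The peaks of the complexes were of ordinary strength with a few strong ones. Their signal values ran from 143.6 to 722.4 with a median of 223.8, against a median of 209.6 over all thresholded peaks. With all thresholded peaks split by strength into 5 equal parts, from the strongest to the weakest, the Hox summits numbered 16, 12, 10, 12 and 9. The best rank was 106 of 3953, and 7 Hox summits stood at rank 300 or better. Weaker entries of the pooled list, below the thresholded peaks, were also denser in the complexes, at 4.11 per 10 kb (272 entries) against 1.84 over the arms.

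**Figure D1:**
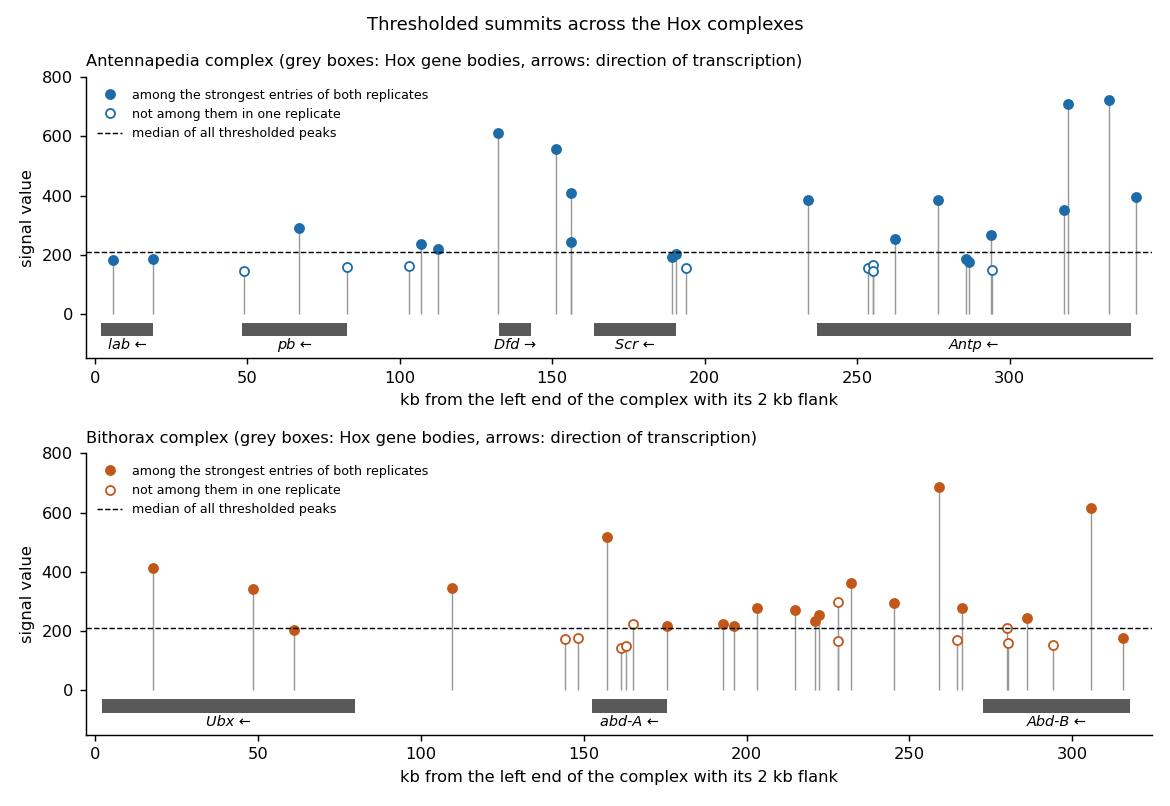
Signal value (the authors' unit) of each thresholded summit against its distance in kb from the left end of each complex, with Hox gene bodies as grey boxes. Filled points were among the strongest entries of both replicates (40 of 59), open points were not, and the dashed line is the median of all thresholded peaks (209.6). Points crowd in Antp and between abd-A and Abd-B, while Dfd and most of Ubx hold few.

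All 8 Hox genes had a summit in the gene body or within 2000 bp, against 18.3% of all protein-coding genes. Hox genes are long, and among protein-coding genes at least as long as Dfd, the shortest member, the share was 47.8%. This sets only a lower limit on length, as the median length of the members was 30.6 kb. Within 500 bp of at least 1 annotated start, here called a promoter summit, 6 of 8 members had a peak, against 8.24% of protein-coding genes and 23.1% of those at least as long as Dfd. The 6 were lab, pb, Dfd, Scr, abd-A and Abd-B, and the 2 without were Antp and Ubx, the longest members. Numbers of annotated starts ran from 1 in Dfd to 6 in Abd-B and were not allowed for. Antp, over 103.0 kb, had 13 summits and none at a start, while Dfd, over 10.6 kb, had a single summit and that at its start.

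The anterior genes lab, pb and Dfd act in the head. With their flanks they had 2, 3 and 1 summits, or 0.945, 0.784 and 0.685 per 10 kb. Scr, with 2, and Ubx, with 3, stood at 0.648 and 0.367 per 10 kb. At lab, the most anterior of the set, the promoter summit lay 77 bp upstream of the outer start with a signal of 186.6. It ranked 2426 in the thresholded list, 2613 in replicate 1 and 3077 in replicate 2. The only other lab summit, in an intron, had a signal of 181.0. Both lab summits were below the genome median. At pb, which specifies mouthparts, the promoter summit 104 bp upstream was weaker still, with a signal of 157.3, and ranked 5145 in replicate 1 against 2033 in replicate 2. The strongest pb summit was intronic, with a signal of 289.0 and ranks of 1445 and 814 in replicates 1 and 2. A further pb summit, with a signal of 144.8, was the only one of the 59 in a coding exon.

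Dfd, which specifies the mandibular and maxillary segments, had one of the strongest promoter summits. This summit, 228 bp upstream of the start, had a signal of 612.6 and ranked 173 in the thresholded list, 134 in replicate 1 and 380 in replicate 2. Both replicates placed it among their strongest entries, and the Dfd body itself held no thresholded summit and 3 weaker entries. Scr, which acts in the labial and first thoracic segments, had a promoter summit at each of its annotated starts. The one 129 bp from the outer start had a signal of 203.3 with ranks of 2393 in replicate 1 and 2003 in replicate 2. The one 170 bp from the inner start had a signal of 193.8 with ranks of 2062 and 3155. No other thresholded summit lay in Scr, so its thresholded summits were both promoter summits, each just under the genome median.

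Antp, which specifies thoracic identity, was the Hox gene with the most peaks. It ranked 11 among protein-coding genes by the number of summits in and around the body, with 12 inside and 1 in the upstream flank. This rank takes no account of length. Antp is 103.0 kb long and had 1.22 summits per 10 kb with its flanks. Signals ran from 144.9 to 722.4. The strongest, in an intron 7120 bp downstream of the distal start, had a signal of 722.4 and ranked 106 in the thresholded list, 108 in replicate 1 and 118 in replicate 2. The next, in the long intron 20235 bp upstream of the middle start, had a signal of 708.6 and ranks of 152 and 83. These were the strongest summits of either complex, and both replicates ranked them near the top.

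The other summits in the Antp body were of mixed strength. One 3166 bp upstream of the proximal start had a signal of 384.8 and close ranks of 591 in replicate 1 and 610 in replicate 2. One beside the strong summit of the long intron had a signal of 349.7 and ranks of 764 and 1053. Both were well inside the strongest entries of each replicate. In the body, 2 more, with signals of 267.0 and 253.2, ranked 1993 and 1506 in replicate 1 and 887 and 1527 in replicate 2. The 3 summits nearest to the 3′ end of the gene had signals of 155.9, 164.2 and 144.9 and ranked 4416, 3810 and 4633 in replicate 1. Replicate 2 ranked the first of these 2360 and the last 2340, and had no entry within 100 bp of the middle one, whose nearest entry, 144 bp away, was the one matched to its neighbour. All 3 were below the genome median, and none was among the strongest entries of both replicates.

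No thresholded summit stood within 500 bp of any of the 3 annotated Antp starts. Weaker pooled entries did: one 292 bp from the middle start had a signal of 78.5, and one 189 bp from the distal start had a signal of 66.1. Of the 12 summits in the body, 9 also lay in CG46458, a protein-coding gene annotated inside Antp, so those peaks cannot be assigned to either gene by position. The summit in the upstream flank, with a signal of 394.4, lay 397 bp from the start of lncRNA:CR45899 and 1661 bp from the distal Antp start.

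Ubx, which specifies the posterior thorax and first abdominal segment, had the fewest summits per length, 0.367 per 10 kb with its flanks. Its 77.8 kb held 3 summits, all intronic and all among the strongest entries of both replicates. Their signals were 411.7, 341.8 and 203.6. The strongest ranked 349 in replicate 1 and 984 in replicate 2, and lay 61935 bp downstream of the single start. At the Ubx start itself the pooled list had a weaker entry 25 bp away, with a signal of 77.2 and a pooled rank of 9598, which replicate 1 ranked 11557. The nearest entry of replicate 2, 130 bp away, ranked 10666. The weakest thresholded peak, for scale, had a signal of 140.7.

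The abdominal genes abd-A and Abd-B had 1.86 and 1.22 summits per 10 kb with their flanks, against 1.22 in Antp. The 22.8 kb body of abd-A, which acts in the middle abdomen, held 4 summits, and another stood at its promoter, 133 bp upstream, with a signal of 216.5 and ranks of 2887 in replicate 1 and 1563 in replicate 2. The strongest abd-A summit was intronic, with a signal of 517.5, a thresholded rank of 268 and ranks of 343 and 233. The other 3 in the body had signals of 143.6, 149.8 and 222.7, and none of these was among the strongest entries of both replicates. One of them ranked 1102 in replicate 1 and 6453 in replicate 2. In and around abd-A, only the strongest intronic summit and the promoter summit were among the strongest entries of both replicates.

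Abd-B, the most posterior gene, which specifies the last abdominal segments and genital structures, had 6 summits, all in the body. It has several promoters that serve different segments. The summit 94 bp upstream of the start at position 16960281 of 3R had a signal of 615.6 and ranked 170 in the thresholded list, 123 in replicate 1 and 376 in replicate 2. It was the strongest promoter summit of the 8 genes, with Dfd next. A summit 446 bp upstream of the start nearest to the 3′ end of the gene had a signal of 211.6 and ranked 1767 in replicate 2, with no match in replicate 1. Replicate 2 also had a stronger entry of its own nearer to this start, of rank 896, that matched no thresholded summit. Its neighbour 658 bp from that start, with a signal of 160.1, was matched at rank 1934 in replicate 1 and not in replicate 2, so the replicates placed their entries at this start differently. The other 4 of the 6 annotated starts had no thresholded summit within 500 bp.

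**Figure D2:**
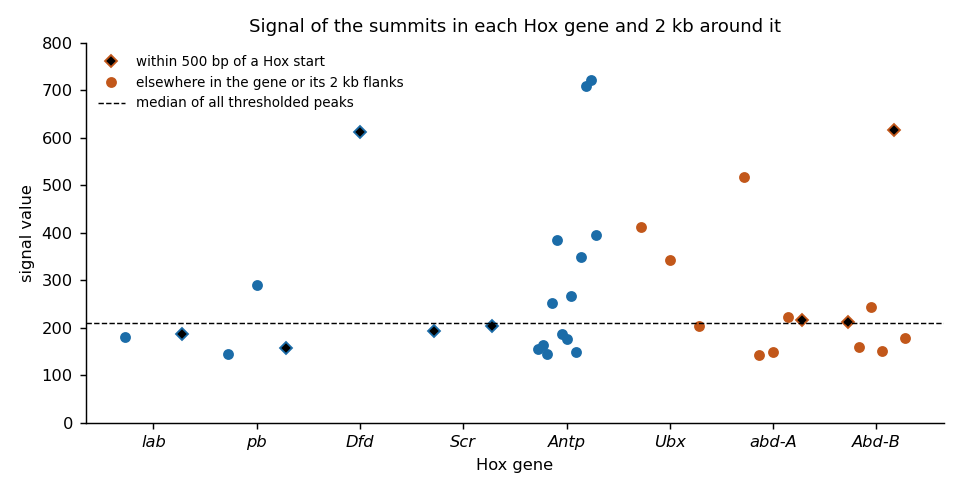
Signal value (the authors' unit) of the summits in each Hox gene and its 2 kb flanks, in order along the chromosome. Dark diamonds lie within 500 bp of a Hox start and circles elsewhere, and the dashed line is the median of all thresholded peaks. Dfd (612.6) and Abd-B (615.6) have strong promoter summits, the other promoter summits lie between 157.3 and 216.5, and Antp and Ubx have none.

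Most Hox summits lay away from starts. Of the 59, 40 were intronic, 13 were promoter summits of any gene and 3 were intergenic. Exons of non-coding RNAs held 2 and a coding exon 1. Intronic summits were 67.8% of the 59 and 42.3% of all thresholded summits, and promoter summits were 22.0% and 33.1%. Intergenic summits were 5.08% and 20.5%, and those in coding exons 1.69% and 0.632%. These differences were not tested. More than 2000 bp from any annotated start lay 36 (61.0%), against 41.2% of all thresholded summits. Intronic here means 25 summits in introns of the Hox genes and 15 between them in introns of other genes, mostly non-coding. By distance from the nearest Hox start, the 8 promoter summits had a median signal of 207.5, the 9 others within 5000 bp 178.3, the next 20, within 20000 bp, 221.5 and the 22 further away 275.1.

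The intervals between genes held 24 summits that were not within 2000 bp of a member. The fullest was the 97.2 kb between abd-A and Abd-B, which carries the infraabdominal regulatory regions: 14 summits counting the abd-A promoter, at 1.44 per 10 kb. Of these, 11 were among the strongest entries of both replicates. The strongest, 20546 bp from the nearest Abd-B start, had a signal of 686.2 and ranked 119 in the thresholded list, 110 in replicate 1 and 172 in replicate 2. Another, 68 bp from the start of lncRNA:iab8, had a signal of 296.0 and ranks of 1068 and 1142. A summit midway in the interval had a signal of 364.0 and nearly equal ranks of 683 and 673. Most of the other summits there had signals of 217.7 to 299.0. The exceptions were at 168.0 and 169.8. Replicate 2 had 1 entry, of rank 1337 and signal 120.0 on its own scale, between the summits at 168.0 and 299.0, at 101 and 106 bp from them and so just past the match distance of 100 bp. For the summit at 169.8 its nearest entry, 119 bp away, ranked 7587. The long transcript iab8 covers 13 of the 14 and MSAmiP, a protein-coding gene annotated on the same stretch, covers 9, so position alone does not tell which gene these summits belong to.

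The interval between Ubx and abd-A was sparser, with 3 summits in 72.8 kb. The strongest, with a signal of 345.8 and ranks of 772 and 949 in replicates 1 and 2, lay in an intron of lncRNA:bxd, the transcript upstream of Ubx whose region is required for Ubx regulation. The other 2, with signals of 175.1 and 176.6, stood lower in replicate 2. The one at 175.1 ranked 5672 there, and the one at 176.6 had its nearest entry, of rank 3428, at 102 bp, which is 2 bp past the match distance. The longest stretch without a summit was 48.5 kb in the Bithorax complex and 40.1 kb in the Antennapedia complex.

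In the Antennapedia complex, the 20.7 kb between Dfd and Scr held 3 summits, with signals of 558.9, 410.3 and 244.3, all among the strongest entries of both replicates. The strongest lay 2 bp from the start of lncRNA:CR45915 and within 2000 bp of mir-10, a microRNA gene of the complex, and ranked 303 in replicate 1 and 156 in replicate 2. Between pb and Dfd stood 5 summits, including the promoter summits of both. The complex also holds homeobox genes that have lost the Hox role in flies, zen, zen2, bcd and ftz, and the immunoglobulin gene Ama. Of these, zen, bcd and ftz had no thresholded summit within 2000 bp, zen2 had 1, which was the pb promoter summit, and Ama had 2. The stronger Ama summit, with a signal of 237.3, lay past the end of the gene in an exon of lncRNA:CR44930, and the other, with a signal of 160.7, at its promoter. The promoter summit ranked 1121 in replicate 2, and the nearest entry of replicate 1, 130 bp away, ranked 3386. Of the other protein-coding genes in the complexes or their 2000 bp flanks, 1 of 17 in the Antennapedia complex had a promoter summit. In the Bithorax complex it was 0 of 4, against 6 of 8 Hox genes and 8.24% of all protein-coding genes. Most of these neighbours are far shorter than the Hox genes, and the difference was not tested.

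**Figure D3:**
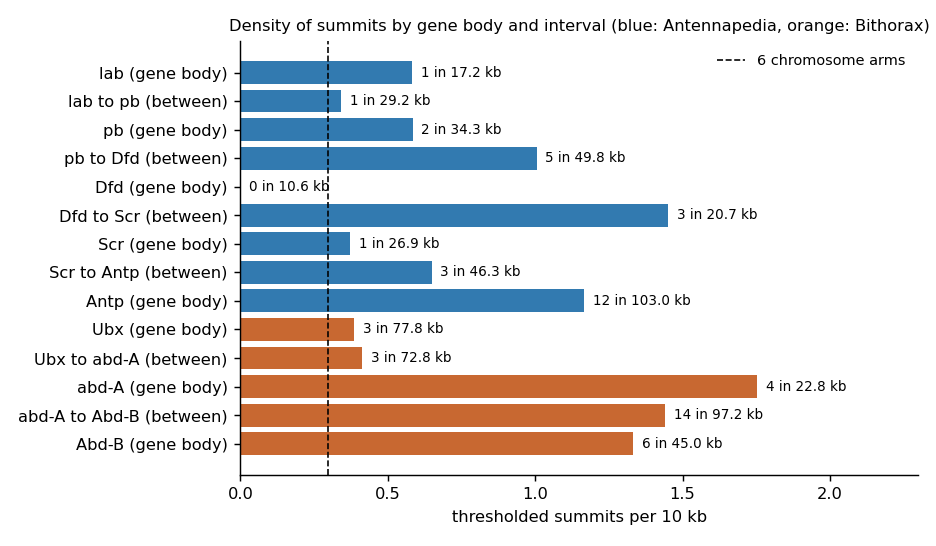
Thresholded summits per 10 kb in each Hox gene body and each interval between neighbours, from left to right on the chromosome, with the count and length beside each bar and the density over the 6 chromosome arms (0.295) as a dashed line. abd-A, Abd-B and the interval between them are at 1.75, 1.33 and 1.44, the interval from Dfd to Scr is at 1.45, while Ubx stands at 0.386 and the Dfd body at 0.

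The replicates placed most Hox summits alike. Among the strongest entries of both replicates, as many as there are thresholded peaks and matched within 100 bp, were 40 of 59 Hox summits (67.8%), against 61.8% of all thresholded peaks. The thresholded list was derived from both replicates, so this share describes the list. In the Antennapedia complex 21 of 29 were in both sets and in the Bithorax complex 19 of 30. All 59 were in the set of at least 1 replicate. Over the full replicate lists 51 were matched in both (86.4%, against 90.9% of all), 2 had no match in replicate 1 and 6 had none in replicate 2, 5 of these in the Bithorax complex. Each of these 8 had an entry of the replicate in question at 101 to 211 bp, and with a distance of 250 bp none was unmatched. Some of these entries were already matched to a neighbouring summit, and 1 entry of replicate 2 was nearest to 2 of the 8. At 250 bp, then, not every summit had an entry of its own. With such shared entries counted, more summits were among the strongest entries of both replicates at 250 bp. They numbered 25 of 29 in the Antennapedia complex and 24 of 30 in the Bithorax complex. A like share over all thresholded peaks was not counted.

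Ranks in the replicates were also counted by complex. Of the summits matched in both full lists, replicate 1 gave the better rank to 16 and replicate 2 to 8 in the Bithorax complex, and to 12 and 15 in the Antennapedia complex. Over all thresholded summits the counts were 1744 and 1848. The set of replicate 1 held 28 of the 30 Bithorax summits (93.3%) and that of replicate 2 held 21 (70.0%). These shares were 82.8% and 89.7% in the Antennapedia complex, and 81.8% and 77.1% over all thresholded peaks. With a match distance of 250 bp, at which neighbouring summits could share an entry, the Bithorax counts became 29 and 25. No share over all thresholded peaks was counted at 250 bp. The difference between the complexes was not tested. Across the 51 matched summits the signals of the replicates had a Spearman correlation of 0.701, against 0.549 over all thresholded peaks, given as descriptions since the points share 2 libraries and the pooled selection.

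**Figure D4:**
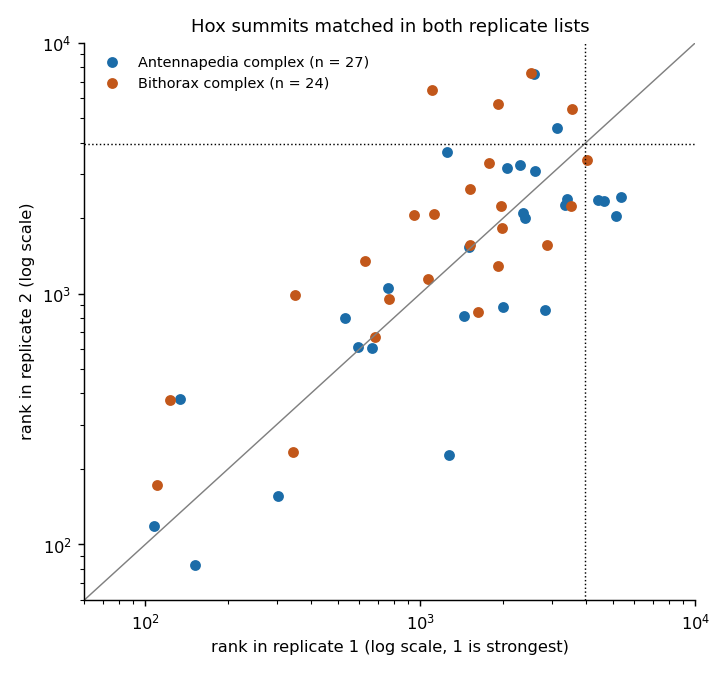
Rank in replicate 2 against rank in replicate 1, both on log axes with 1 the strongest, for the Hox summits matched in both full lists (27 in the Antennapedia complex, 24 in the Bithorax complex). The grey line marks equal ranks and the dotted lines the number of thresholded peaks (3953). Above the line, where replicate 1 gave the better rank, lie 16 of 24 orange Bithorax points and 12 of 27 blue Antennapedia points.

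The Pho core was present in a larger share of the Hox windows than of all windows, a difference that was not tested. A match to GCCAT on either strand was found in 30 of 59 Hox windows (50.8%), and in 743 of all 3953 windows of the same length (18.8%). Counted alone, the Bithorax complex had 18 of 30 and the Antennapedia complex 12 of 29. The share was 22 of 118 (18.6%) in windows centred 350 bp to either side of the same summits, but these flanking windows had a median GC content of 38.6%, against 54.5% in the Hox windows, so that composition and distance from the summit cannot be told apart in it. A counting interval (exact Clopper-Pearson, 95%) for the 30 of 59 runs from 37.5% to 64.1% and covers counting error only, as neighbouring windows are not independent.

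Shares of GCCAT were also counted in subsets alike in composition or place. Among windows with 50 to 60% GC, 21 of 36 Hox windows (58.3%) held GCCAT against 21.9% of all such windows. Among summits over 2000 bp from any start, it was 16 of 36 (44.4%) against 20.2%, and on 3R outside the complexes the share was 19.7%. In the strongest of the 5 parts of the list, 11 of 16 Hox windows held it against 19.1%. Weaker pooled entries of the complexes had 36.0% and all weaker pooled entries 22.5%, so entries that missed the threshold in the complexes also held it more often than those elsewhere. The median signal was 261.7 for the Hox windows with GCCAT and 211.6 for those without, while over all windows it was 212.2 and 208.7. Whether Pho or another protein binds at these matches cannot be told from the peak lists.

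The printed windows, some of them chosen for their matches, show the form that these take. Over all 59 Hox windows, GCCAT stood 46 times in the 30 that held it, more than once in 12 and 3 times in 4. These 4 were the abd-A intron, the left and right iab-8 windows and the window at the Ama start, which is not printed. Reading the windows, a longer form GCNGCCAT, known from Pho and its mammalian relative YY1, was noticed and then counted. It accounted for 17 of the 46 matches, in 13 of 59 Hox windows (22.0%) against 2.53% of all windows. Of the 13, 11 were in the Bithorax complex and 2 in the Antennapedia complex, and 1 of 118 windows beside the Hox summits, poorer in GC, held it. Windows with 2 copies were the abd-A intron, the left and middle iab-8 windows and the iab-8 start. This count was made after the windows had been seen and describes them only.

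GAGAG, the GAGA factor core, was found in 25 of 59 Hox windows (42.4%) against 27.1% of all windows. The difference was not tested. The windows beside the Hox summits, which are poorer in GC, had 12.7%. Among windows with 50 to 60% GC the share was 44.4% of Hox windows against 32.2% of all. In the strongest of the 5 parts it was 43.8% against 33.9%, and over 2000 bp from any start 33.3% against 22.8%. Weaker pooled entries of the complexes had 16.9% and all weaker pooled entries 15.4%. The summit beside mir-10 held 12 matches, most of them overlapping, the most of any Hox window, and the bxd window 4. GAGAG and GCCAT stood together in 11 Hox windows (18.6%) against 4.73% of all, among them the Dfd promoter, the inner Scr promoter, the bxd window and the iab-8 start. The strong Antp and Abd-B windows were unlike these. The strongest Antp windows held GCCAT once each and no GAGAG, and the Abd-B promoter held GAGAG once and no GCCAT.

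Other motifs were either about as frequent as in all windows or too rare to judge. The C-rich motifs were of the former kind: CCCCNCCC in 18.6% against 17.0%, and CCCACCCC in 5.08% against 6.37%. These motifs can overlap each other in a run of C. Sites read by homeodomain proteins were rare: TAATTA in 2 windows (3.39% against 3.47%), the composite of Extradenticle and a Hox protein TGATTNAT in 3 (5.08% against 1.16%), and the Abd-B site TTTATGG, which shares 4 letters with ATGGC, in 3 (5.08% against 2.25%). The Zelda site CAGGTAG was in 2 (3.39% against 0.557%). With 2 or 3 windows each, these shares carry little precision, though some ratios to all windows are larger than that of GCCAT. The median GC content was 54.5% in the Hox windows and 50.5% in all.

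**Figure D5:**
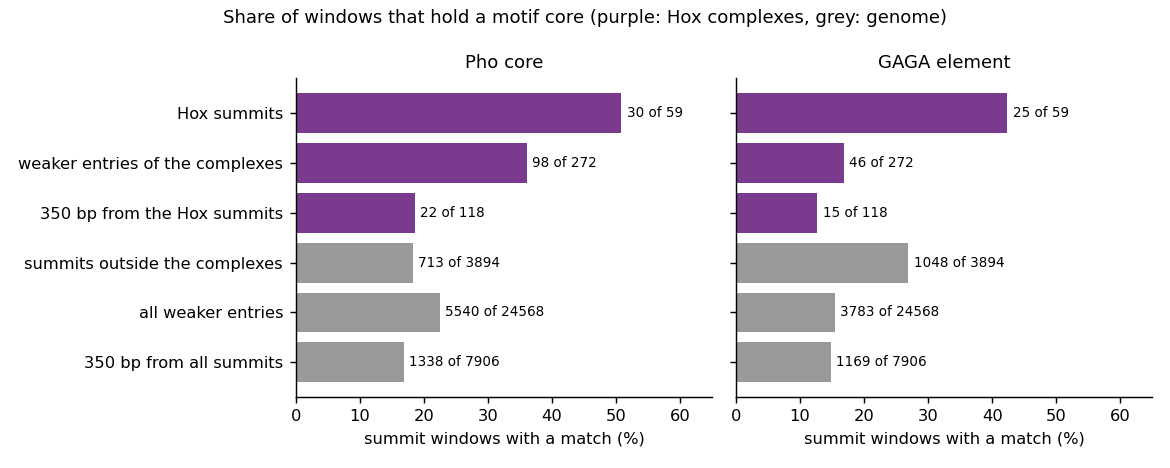
Share of windows of 101 bp (%) that hold the Pho core (left) or the GAGA element (right) on either strand, with the counts beside each bar. Purple bars are windows of the Hox complexes and grey bars windows of the genome. For the Pho core the Hox summits stand at 50.8% and the weaker entries of the complexes at 36.0%, with the other sets between 16.9% and 22.5%.

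Genes that act with the Hox genes were looked up from lists chosen with earlier results of these data known. Among Hox cofactors, 4 of 6 had a promoter summit, with signals of 485.1 at disco, 311.7 at disco-r and 305.7 at btd. hth, which encodes the Homothorax partner of Hox proteins, had 16 summits in and around its body. It ranked 5 among protein-coding genes by that count, which takes no account of length. The hth gene spans 132008 bp and had 1.18 summits per 10 kb with its flanks. No summit was found in or near exd, the partner gene of hth. Among 21 Polycomb and trithorax regulators, 9 had a promoter summit and 14 a summit in or near the body. The strongest promoter summits were at the Polyhomeotic genes ph-p (1176) and ph-d (1075) and at Psc (538.7). Among genes with a promoter summit, its median signal was 407.1 for these regulators, 209.9 for the Hox genes and 239.2 for all protein-coding genes. pho itself had no summit.

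Of the regulators that start Hox expression, 3 of 7 gap genes had a promoter summit, with 276.6 at hb, 229.1 at cad and 173.4 at hkb, and 6 of 9 pair-rule genes, led by run at 531.0, opa at 413.1 and slp1 at 362.7. Of 12 genes reported as Hox targets, 9 had a promoter summit, with 648.2 at fkh, 526.4 at Dll and 478.7 at ems. All of these shares were above the 8.24% of protein-coding genes. The lists are short, and their genes differ in length and number of starts, so nothing particular to a list is read from these counts.

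Outside the complexes, the genes most like each member in length, number of summits and strongest signal were found among 2551 protein-coding genes with a summit. Likeness was the distance over these 3 measures on a log2 scale, each divided by its SD. Antp was nearest to Tlk (12 summits, strongest 794.4), Eip75B (17 and 744.4) and nmo (10 and 792.6). Abd-B was nearest to dlp, msn and spen, with 5 or 6 summits each, and Dfd to unc-4, AcCoAS and Dr, each with 1 summit of 595.7 to 636.8. Ubx was nearest to sima, beat-Ib and CG34355, abd-A to Sesn, atos and CG46429, pb to Src64B, gish and Shrm, Scr to IP3K2, CG5004 and Moe, and lab to Argk1, CG10384 and GlyT. Likeness here says nothing of shared function.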

How the data were processed

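Chromatin immunoprecipitation with sequencing of l(3)neo38-GFP embryos gave 2 biological replicates of 1 group. The authors deposited peak lists on dm6 whose signal values are their own measure of peak strength, and whose normalization the labels do not give. The deposited lists are 1 per replicate, made from its alignments and a control, 1 from both replicates pooled and 1 after an irreproducible discovery rate threshold derived from these 3, per the descriptions deposited with them. The name of the peak caller and the threshold applied were not given in the sources used here; lists on dm3 were not used. The lists hold no read counts, so depth is unknown and its effect on precision cannot be stated.

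Summits were compared with the Ensembl 115 annotation of dm6, in which 17680 of 17682 genes had the same start and end as in RefSeq, and no entry lay past the end of its arm. Promoter summits lay within 500 bp of a transcript start. Replicate summits counted as matched at 100 bp or less, both over each full list and over its top 3953 entries. Motifs were searched on both strands of the release 6 sequence within 50 bp of each summit, so a window is 101 bp, and the same windows 350 bp to either side served for comparison. In full, the text gives the strongest summit and every promoter summit of each member, together with at most 3 genes of each comparison list by promoter signal and the 3 most like genes of each member. Members, lists and most motifs were chosen with earlier results of these data known. Alternatives were the 1976 strongest peaks, each replicate list alone, merged summits, and other promoter, flank, match and motif windows. No test between groups was possible with 1 group. The functions for assignment, matching and motif search were tested on simulated data. Python 3.11.15 was used with pandas 2.3.3, numpy 2.4.6, scipy 1.17.1 and matplotlib 3.10.9.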

Additional observations from a re-analysis of the deposited data

How the results depend on the processing

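Of 47 recomputed values, 35 were counts, of which 32 were within 1.5 times of those reported. Of 4 medians of signal, 1 was within 1 SD of the replicate medians (16.3), and of 8 shares of windows with GCCAT, 6 were within the counting interval of the reported share. The rest came from fewer peaks, another signal scale, or another window. With the stronger part of the list alone, 1976 peaks, 3 Hox genes kept a promoter summit (Dfd, abd-A and Abd-B), 35 summits were assigned, 15 of them in the Antennapedia complex, and the median signal was 296.0, against 302.7 over that part. Replacing the thresholded list by 1 replicate's own strongest entries gave median signals of 105.2 (replicate 2 alone) to 128.2 (replicate 1 alone), on those lists' own scales, against 98.9 and 122.2 over each list. Promoter summits were then found at 5 to 6 members, pb being lost in replicate 1, and 56 to 57 summits were assigned, 28 to 31 in the Antennapedia complex and 26 to 28 in the Bithorax complex. Summits in or near a member were found at 8 members in either. Shares over all protein-coding genes were not recomputed for the stronger part or the replicate lists, so these gene counts have no like share beside them. Dfd had no summit when the flank was 0 bp. Matching within 50 bp or 250 bp, or over full lists, put 35 to 51 Hox summits in both replicates.

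The share of Hox windows with GCCAT was recomputed under settings chosen after seeing the data. It was 25.4% within 25 bp of the summit (9.97% of all windows) and 72.9% within 100 bp (34.0%), 53.7% after merging summits (18.6%) and 57.1% in the stronger part (19.3%). It was 47.4% in replicate 2's own list (20.3%) and 28 of 56 windows in replicate 1's (18.4%). No paired analysis was possible because the samples form 1 group. With depth unknown, a start without a thresholded summit, such as those of Ubx and Antp, is one below the threshold of this list and is not shown to lack l(3)neo38-GFP.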

Other observations

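Strong entries of the separate replicates in the complexes were also compared with the thresholded summits. Of 56 strong entries of replicate 1 in the complexes, 4 had no thresholded summit within 100 bp, all in the Antennapedia complex. Of 57 strong entries of replicate 2, 10 had none, 5 in each complex. Of these, 3 lay 101 to 111 bp from a thresholded summit, just past the match distance. The like share over all strong entries of either replicate was not computed, so these counts have no reference. Non-coding genes inside the complexes had promoter summits at 4 of 26 in the Antennapedia complex and 1 of 11 in the Bithorax complex. The 26 include very short genes, such as those of tRNAs. A share over all non-coding genes was not computed, so whether these counts are high or low cannot be told.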
